A study of Mus musculus with 384 samples.

Results

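A group of 6 genes was followed through single hair follicle cells of the mouse: the NF-kB regulators Nfkbia, Nfkbiz and Tnfaip3, and the epidermal alarm genes Il1r2, Il33 and Ptges. They were picked by symbol from a table of 46609 rows, after earlier results of the same cells had been seen. The values described here are therefore a description, carry no test, and support no claim about why these 6 genes were picked. Each symbol had its own row, so all 6 members were found.

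Cells came from the back skin of mice aged 70 days, labelled male, and were sorted singly as DAPI-negative, integrin α6-positive and YFP-positive. In the group labelled cKO mice carried Sox9-CreER with NFIBfl/+ and NFIXfl/fl, so that 1 Nfib allele and 2 Nfix alleles were floxed. In the group labelled dKO they carried Sox9-CreER with NFIBfl/fl and NFIXfl/fl, 2 floxed alleles of each gene. Both groups share Sox9-CreER, a tamoxifen-inducible recombinase driven from the Sox9 locus of hair follicle stem cells, the floxed Nfix alleles and the R26-YFPfl/fl reporter. There was no group without floxed Nfib and Nfix alleles. NFIB and NFIX are transcription factors of the nuclear factor I family, and the comparison of dKO with cKO asks what the second floxed Nfib allele adds. Every plate held cells negative for Sca-1, the surface protein encoded by Ly6a that marks epidermis and the upper follicle. cKO plate 3 and dKO plate 2 also held Sca-1-positive cells.

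Of 384 cells, 378 had at least 1000 genes at 1 TPM or more and were kept. TPM is the share of a gene among the transcripts of a cell, scaled to a fixed total and corrected for transcript length, so levels can be set side by side between genes. The 337 kept Sca-1-negative cells were 71, 47 and 65 cells on cKO plates 1 to 3 and 93 and 61 cells on dKO plates 1 and 2. The 41 kept Sca-1-positive cells were 22 of cKO plate 3 and 19 of dKO plate 2. The median number of genes detected per cell lay between 4770 and 5199 in these 7 sets of cells, and the read depth is unknown. The labels name no animal, so a genotype within a gate was treated as 1 sample and no p-value is given. Despite the male label, cKO plates 1 and 2 and dKO plate 1 carried Xist RNA, at plate means of 44.5 to 59.8 TPM, and the other plates carried Y-linked RNA. The Sca-1-negative plates of each genotype thus differ in sex and come from more than 1 animal, but which plates share an animal is unknown. Results are therefore also given within each of these kinds of plate. Whether the floxed alleles had recombined cannot be read from gene-level TPM. Nfib RNA averaged 67.1 to 80.4 TPM across the 3 cKO plates, with 58.4 and 90.4 TPM across the 2 dKO plates, and Nfix RNA 43.7 to 47.96 TPM against 29.6 and 32.3 TPM.

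NF-kB is a family of dimeric transcription factors that wait in the cytoplasm, bound by inhibitors of the IκB family, until IL-1, TNF or Toll-like receptor signals activate the IκB kinase. NF-kB then switches on inflammatory genes together with its own brakes. Nfkbia encodes IκBα, which returns NF-kB to the cytoplasm, and Tnfaip3 encodes A20, a ubiquitin-editing enzyme that shuts off signalling upstream of the kinase. Nfkbiz encodes IκBζ, a nuclear IκB protein that acts as a cofactor for a subset of NF-kB target genes. Among the alarm genes, Il1r2 encodes a decoy receptor that binds IL-1 without signalling. Il33 encodes a nuclear cytokine of the IL-1 family that barrier cells release on damage, and Ptges encodes the inducible prostaglandin E synthase.

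The genes lie on different chromosomes. In GRCm38 with the GENCODE M21 annotation all are protein-coding: Nfkbia at chr12:55489410-55492647 (minus strand), Nfkbiz at chr16:55811375-55838899 (minus strand), Tnfaip3 at chr10:19000910-19015657 (minus strand), Il1r2 at chr1:40074079-40125231 (plus strand), Il33 at chr19:29925114-29960718 (plus strand) and Ptges at chr2:30889471-30929863 (minus strand). The promoters of the members were searched for the NF-kB motif on both strands. The search used RefSeq windows (GRCm38.p6) from 250 bases before to 50 after the start site. Windows were found for 5 of the 6 members, Nfkbiz being the one without. The motif was present in 8.46% of all 32851 windows of this length. It matched once in the window of Nfkbia and at 2 places in the first of 2 windows of Tnfaip3. Neither shown stretch of Tnfaip3, nor that of Nfkbia, overlaps an exon of its gene in GENCODE. The windows of Il1r2, Il33 and Ptges held no match, which says only that these letters are not in those windows. The RefSeq start sites need not be the GENCODE gene ends given above. The windows of Il1r2 (chr1:40085843-40086142) and Ptges (chr2:30903248-30903547) lie inside those gene spans, as do both shown stretches of Tnfaip3. Sequences are written 5′ to 3′ on the strand of the gene, with the match in capitals. Capitals mark only matches to the searched NF-kB motif, so sites that differ from it stay in lower case.
Nfkbia, chr12:55492648-55492897, minus strand: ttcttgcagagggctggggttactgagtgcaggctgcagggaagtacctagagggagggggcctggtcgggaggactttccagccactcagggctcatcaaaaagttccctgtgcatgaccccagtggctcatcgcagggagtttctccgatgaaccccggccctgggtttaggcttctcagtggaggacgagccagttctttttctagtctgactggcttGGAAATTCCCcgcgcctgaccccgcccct
Tnfaip3, upper match, chr10:19015516-19015545, minus strand: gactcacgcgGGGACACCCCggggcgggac
Tnfaip3, lower match, chr10:19015411-19015440, minus strand: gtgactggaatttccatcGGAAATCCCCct

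These matches begin at position -29 from the start site of Nfkbia and at positions -125 and -12 from that of Tnfaip3; the match at -125 reads as a match on either strand. The core recognised by a single NFI protein, TTGGC (both strands), was present in 46.7% of all windows, so its presence in a member's window separates little. It occurred in the windows of Il1r2, Ptges, Tnfaip3 and one of the 2 windows of Il33, and not in that of Nfkbia. The paired NFI site, TTGGC and GCCAA with 5 bases between them, matched in none of the members' windows and in 0.0365% of all windows. The motif of AP-1, the factor family that includes Fos, was present in 5.20% of all windows. Among the members' windows it matched in the first window of Tnfaip3 only.

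The 3 regulators were expressed in Sca-1-negative cells of every plate, Nfkbia highest on each and Nfkbiz above Tnfaip3 on 3 of 5 plates, while the 3 alarm genes were close to 0 there. Nfkbia averaged 44.9, 94.5 and 54.03 TPM across the 3 cKO plates, with 53.9 and 42.2 TPM across the 2 dKO plates. cKO plate 2 stood above all others, and the remaining plates of both genotypes overlapped. The gene reached 10 TPM, the level at which a cell is called positive here, in 53.5% to 76.9% of cells by plate.

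Nfkbiz averaged 18.9, 34.3 and 12.26 TPM across the 3 cKO plates, with 12.16 and 4.49 TPM across the 2 dKO plates. The lowest cKO plate lay just above the higher dKO plate. Positive cells made up 38.0% (exact 95% binomial interval 26.8 to 50.3%), 42.6% (28.3 to 57.8%) and 30.8% (19.9 to 43.4%) on the cKO plates. On the dKO plates they made up 25.8% (17.3 to 35.9%) and 16.4% (8.15 to 28.1%), so the intervals of neighbouring plates overlap. Binomial intervals here and elsewhere cover counting error only.

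Tnfaip3 averaged 15.2, 52.8 and 11.4 TPM across the 3 cKO plates, with 11.6 and 8.19 TPM across the 2 dKO plates. The high value of cKO plate 2 stood apart, and dKO plate 1 lay above cKO plate 3. The RNA was concentrated in few cells, as the 5% of cells with the highest value held 54.8% to 61.9% of its summed TPM on each plate. By share of positive cells, 42.6% on cKO plate 2 stood against 16.4% to 20% on the other plates.

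The alarm genes were rare in the Sca-1-negative gate. Il1r2 averaged 0.993, 6.23 and 0.130 TPM across the 3 cKO plates, with 1.90 and 0.429 TPM across the 2 dKO plates, with 10 positive cells of 337. Il33 averaged 0.211, 2.39 and 0.454 TPM across the 3 cKO plates, with 0.0447 TPM on dKO plate 1, with 5 positive cells, all of them cKO. On dKO plate 2 it was listed at 0 in all 61 cells, which allows a share of up to 4.92%. For a share of 0 this limit, here and elsewhere, is 3 cells of the total and not the exact bound, which is 5.87% here. Apart from cKO plate 2, with 5 and 3 positive cells, no plate had more than 3 cells positive for either gene.

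Ptges averaged 2.58, 3.60 and 0.0638 TPM across the 3 cKO plates, with 3.17 and 7.49 TPM across the 2 dKO plates. It was the commonest alarm gene of this gate, with 22 positive cells. On cKO plate 3 no cell reached 10 TPM, which allows a share of up to 4.62%, while on dKO plate 2 the share was 14.8% (6.98 to 26.2%). By mean, dKO plate 1 fell between cKO plates 1 and 2, so the genotypes overlapped. By share, dKO plate 1, at 8.60% (3.79 to 16.2%), and dKO plate 2 lay above the cKO plates, at 2.82%, 6.38% and 0%, with intervals that overlap in part.

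**Figure D1:**
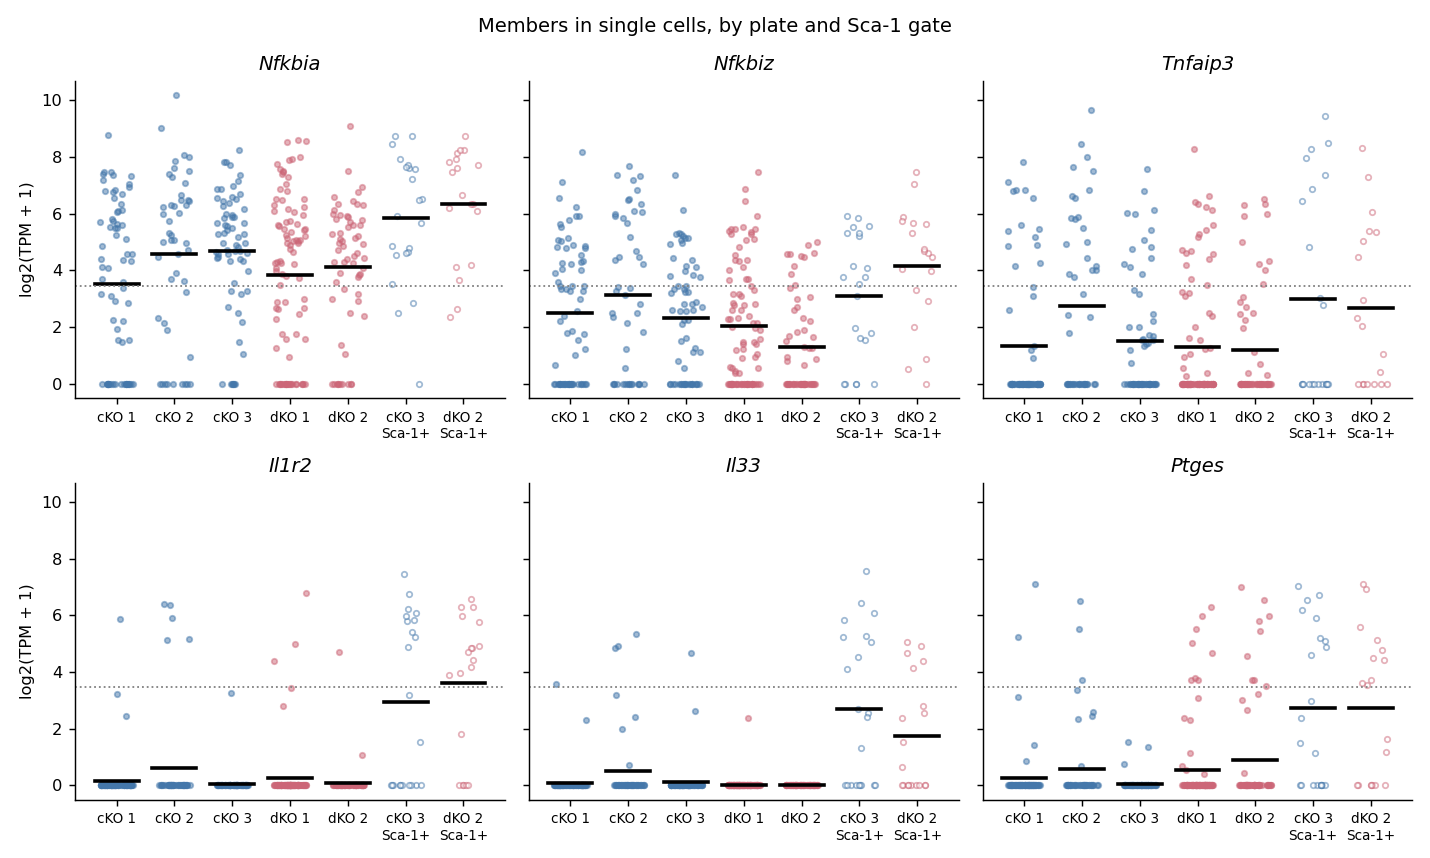
Each point is 1 kept cell, plotted as log2(TPM + 1) for the 6 genes by plate; blue is cKO, red is dKO, open points are Sca-1-positive cells, black bars are means and the dotted line marks 10 TPM. Sca-1-negative cells spread widely for the regulators and lie almost all at 0 for Il1r2, Il33 and Ptges, where the open points reach far above the line.

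Between genotypes in Sca-1-negative cells, Nfkbiz was the member that passed the size rule, 2.45-fold lower in dKO than in cKO cells. The rule asked for a ratio of at least 2 between plate-averaged TPM with 1 TPM added, and for plates of the 2 genotypes that do not overlap in mean TPM or in mean log2(TPM + 1). Among the 7060 genes whose mean over all plates reached 5 TPM, 0.637% passed it as higher and 1.23% as lower in dKO. Only Nfkbia, Nfkbiz and Tnfaip3 reached 5 TPM, so 1 of 3 measured members and 0 of 3 in the other direction passed. Mean Nfkbiz was 21.8 ± 11.3 TPM (SD over 3 cKO plates) and 8.32 ± 5.43 TPM (SD over 2 dKO plates), a log2 ratio of -1.29 beside a median of -0.12 over all measured genes. The margin is narrow: without cKO plate 2 the log2 ratio was -0.83, without dKO plate 2 it was -0.79, and Nfkbiz passed in neither case. After rescaling without the ERCC spike-ins and the 5 most abundant rows the log2 ratio was -1.19, and with a size factor per plate -1.13, and Nfkbiz passed with neither scaling. The split of all genes that passed was 45 higher and 87 lower, and it became 250 higher and 197 lower with the rescaling, or 57 higher and 62 lower with the size factors.

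Tnfaip3 had a similar log2 ratio, -1.33, but its plates overlapped, and without cKO plate 2 the ratio was -0.39. For Nfkbia the log2 ratio was -0.42. Among plates with Xist RNA the log2 ratio of dKO to cKO was -1.07 for Nfkbiz, -1.47 for Tnfaip3 and -0.36 for Nfkbia. Among plates with Y-linked RNA it was -1.27, -0.43 and -0.35, in the same order. Nfkbiz thus kept its direction and size in both kinds of plate, whereas the Tnfaip3 difference was mainly in the first. Ptges had a log2 ratio of 0.03 with Xist RNA and of 3.00 with Y-linked RNA, the latter resting on 9 positive cells of dKO plate 2 against 0 of cKO plate 3.

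Genes induced within minutes of stimulation or of cell handling, the immediate early genes, were measured beside this comparison. Their summed TPM over 22 genes was 2933, 4112 and 1523 across the 3 cKO plates, with 2357 and 870 in the 2 dKO sets. These sums overlapped between genotypes over all plates. Within each kind of plate they were lower in dKO, at 2357 against 2933 and 4112 TPM with Xist RNA. With Y-linked RNA they stood at 870 against 1523 TPM. Of 19 measured immediate early genes 0 passed the size rule, with a median log2 ratio of -0.81. The list holds the AP-1 gene Fos, which fell short of the rule at 510 TPM (cKO) and 313 TPM (dKO), and the phosphatase gene Dusp1, at 478 and 328 TPM. A score, the mean log2(TPM + 1) over the list, was used to divide the cells at its median. In cells at or above it, Nfkbiz averaged 32.1, 52.1 and 25.1 TPM across the 3 cKO plates, with 17.9 and 10.4 TPM across the 2 dKO plates, so the plates did not overlap. In cells below it, Nfkbiz was low everywhere, between 2.70 and 4.60 TPM (cKO) or at 1.82 and 3.06 TPM (dKO), and these values overlapped. Scores were not matched between genotypes within either part, so the division is a description. The part of immediate early induction in the Nfkbiz difference was not tested.

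Of the other pathway genes listed, Ripk1 and Ccl27a passed the rule by genotype, both lower in dKO, where 1.23% of all measured genes were lower. Of 8 measured genes among NF-kB subunits, IκB proteins and the IκB kinase complex, 0 passed the rule in either direction, with a median log2 ratio of -0.23. Examples are the kinase gene Ikbkb (21.4 and 16.9 TPM in cKO and dKO) and Nfkbib, which encodes IκBβ (18.9 and 12.2 TPM). Of 14 measured feedback and adaptor genes, Ripk1, which encodes a kinase of TNF receptor signalling, was lower in dKO (11.1 against 4.36 TPM) and none was higher. By plate, Ripk1 stood at 13.5, 14.2 and 5.61 TPM (cKO) and at 4.52 and 4.19 TPM (dKO). Its difference was thus mainly in the plates with Xist RNA. Of 8 measured IL-1 and TNF family ligands and receptors, 0 passed. Among 9 measured inflammatory targets, the skin chemokine gene Ccl27a was lower, at 475, 662 and 391 TPM across the 3 cKO plates, with 259 and 199 TPM across the 2 dKO plates, which did not overlap. None of 8 measured alarm and barrier stress genes passed. The same held for 9 genes of prostaglandin synthesis and transport, where the prostaglandin transporter gene Slco2a1 stood at 24.4 TPM (cKO) and 13.4 TPM (dKO). Ptges3, also of that list, stood at 27.5 TPM in both genotypes.

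All 3 alarm genes had higher levels in the Sca-1-positive gate on both plates that held it. In Sca-1-positive cells of cKO plate 3 and dKO plate 2, respectively, Il1r2 averaged 32.2 and 28.7 TPM, Il33 25.3 and 7.36 TPM, and Ptges 26.8 and 23.4 TPM. Il1r2 was positive in 45.5% (24.4 to 67.8%) and 68.4% (43.4 to 87.4%) of these cells. In Sca-1-negative cells of the same plates the shares were 0% (up to 4.62%) and 1.64% (0.0415 to 8.80%), with intervals that do not overlap.

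Il33 was positive in 40.9% (20.7 to 63.6%) of Sca-1-positive cells on the cKO plate and 26.3% (9.15 to 51.2%) on the dKO plate. Their Sca-1-negative counterparts stood at 1.54% (0.0389 to 8.28%) and 0% (up to 4.92%). Ptges was positive in 40.9% (20.7 to 63.6%) and 52.6% (28.9 to 75.6%), against 0% (up to 4.62%) and 14.8% (6.98 to 26.2%). Ptges was the alarm gene with the largest share in Sca-1-negative cells of dKO plate 2.

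The regulators also had higher means in this gate, with the smallest ratio for Nfkbiz on cKO plate 3. Nfkbia averaged 128.7 TPM in Sca-1-positive against 54.03 TPM in Sca-1-negative cells of cKO plate 3, and 148.2 against 42.2 TPM on dKO plate 2. For Tnfaip3 the pairs were 91.7 and 11.4 TPM, then 36.3 and 8.19 TPM. Nfkbiz stood at 18.5 against 12.26 TPM on cKO plate 3 and at 36.9 against 4.49 TPM on dKO plate 2. Tnfaip3 again depended on few cells, since the highest 2 of 22 Sca-1-positive cKO cells held 52.2% of its sum.

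**Figure D2:**
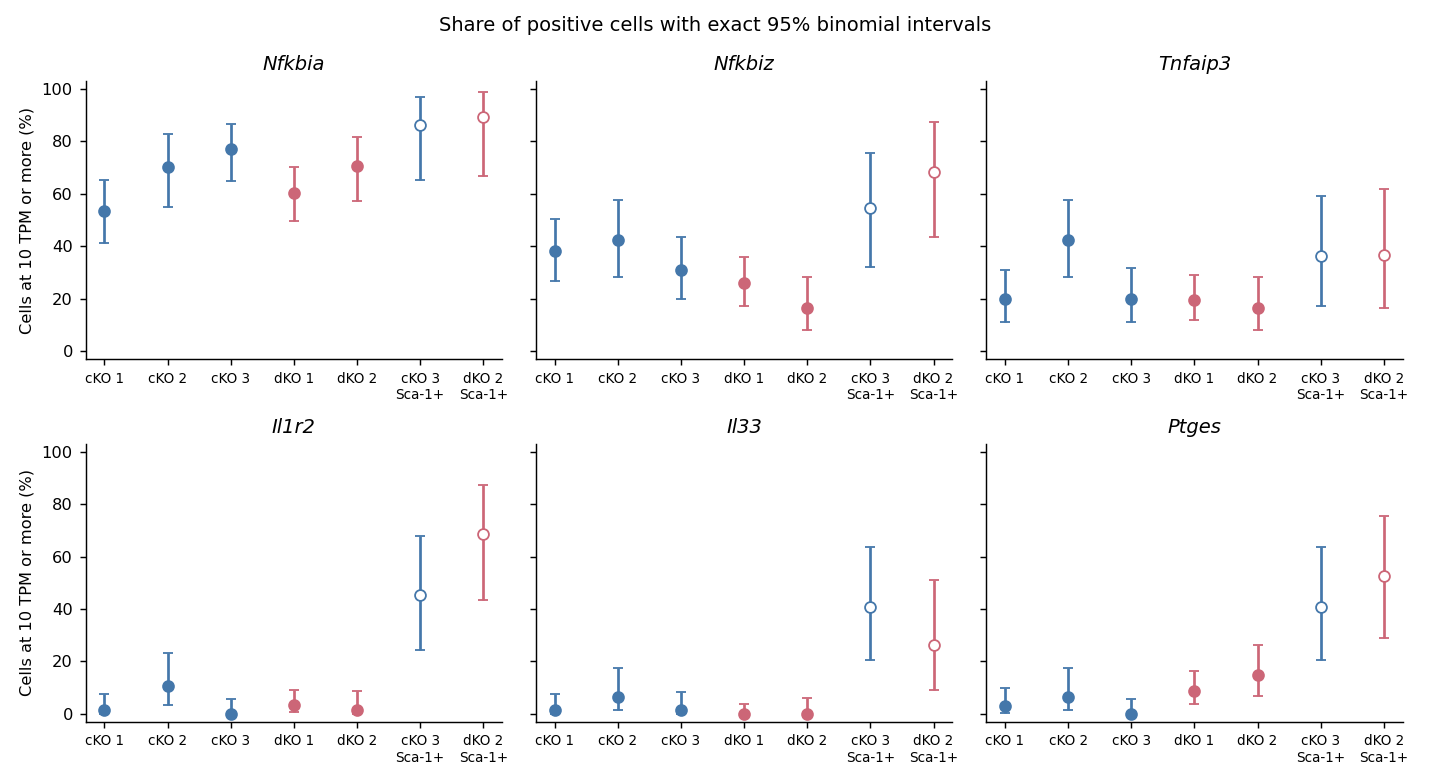
The share of cells at 10 TPM or more is plotted in percent for each gene by plate and gate, with exact 95% binomial intervals as bars; blue is cKO, red is dKO and open points are Sca-1-positive cells. For Il1r2 the open points lie at 45.5% and 68.4% and every filled point at or below 10.6%, while for Tnfaip3 the filled point of cKO plate 2, 42.6%, lies above both open points.

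By the size rule for gates, a ratio of 2 or more with 1 TPM added, together with mean log2(TPM + 1) values 1 or more apart, 5 of 6 members were higher in the Sca-1-positive cells of cKO plate 3. The exception was Nfkbiz, at a log2 ratio of 0.55. Of 7735 genes with at least 5 TPM in either gate of that plate, 2.99% were higher and 5.52% lower. On dKO plate 2 all 6 members were higher, where 4.1% of 7677 genes were higher and 10.2% lower. A member such as Il1r2 entered these counts through the gate in which it is high, so the counts are a description. The log2 ratios on cKO plate 3 were 1.24 for Nfkbia, 2.90 for Tnfaip3, 4.88 for Il1r2, 4.18 for Il33 and 4.71 for Ptges. On dKO plate 2 they were 1.79 for Nfkbia, 2.79 for Nfkbiz, 2.02 for Tnfaip3, 4.38 for Il1r2 and 1.52 for Ptges. No ratio is given for Il33 there, because the Sca-1-negative cells were listed at 0.

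Sca-1-positive cells sat in well rows A and B of their plates and Sca-1-negative cells in rows C to H, so that gate and well row cannot be told apart. The gate differed in cell identity as well. Cd34, the surface marker of the bulge, the stem cell niche of the follicle, averaged 0.362 and 0.165 TPM in Sca-1-positive cells against 44.3 and 48.4 TPM in Sca-1-negative cells. Lhx2, a transcription factor gene of the bulge, was listed at 0 in all Sca-1-positive cells. The basal keratin gene Krt5 was present in every one of these cells, at means of 1461 and 1474 TPM, and 35 of 41 held Ly6a RNA. Lower levels of 9 of 12 measured bulge markers were found in the Sca-1-positive cells of each plate. The 3 that were not lower were Krt15, at 436 and 421 TPM, Itga6, at 75.2 and 64.2 TPM, and Col17a1, at 262 and 256 TPM, all of which basal epidermis expresses too. Markers of the upper follicle and epidermis were mixed. Of 12 measured, 1 was higher and 4 were lower on cKO plate 3, and 3 and 6 on dKO plate 2. The gene higher on cKO plate 3 was Ly6a, which encodes the protein that the cells were sorted by. Its call was thus not independent of the sort. On dKO plate 2 the higher genes were Ly6a, Lgr6 and Krt1. Krt79, Lrig1, Gata6 and Cst6 were lower on both plates. Among all genes, 2.99% and 4.1% were higher and 5.52% and 10.2% lower, in the same order of plates.

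A few other genes of IL-1 signalling and prostaglandin handling passed the gate rule. Il1rn, which encodes the IL-1 receptor antagonist, averaged 36.6 against 17.4 TPM on cKO plate 3 and 61.4 against 14.8 TPM on dKO plate 2. Of the IL-1 and TNF list, 2 of 10 measured genes were higher on the cKO plate and 2 of 8 on the dKO plate, with none lower, beside 2.99% and 4.1% of all genes. The second gene was the receptor subunit gene Il1rap on cKO plate 3 and the IL-36 receptor gene Il1rl2 on dKO plate 2. Il1r1, the signalling IL-1 receptor, had 2.61 and 5.63 TPM in the Sca-1-positive cells and 5.56 and 5.80 TPM in the Sca-1-negative cells of the same plates, and did not pass. Il1rl1, the receptor gene of IL-33, was listed at 0 in all Sca-1-positive cells. In Sca-1-negative cells of cKO plate 3 and dKO plate 2 it averaged 0.0249 and 0 TPM, so it was near 0 in both gates.

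Of the prostaglandin list, 2 of 10 measured genes were higher on cKO plate 3, where 2.99% of all genes were higher. On dKO plate 2, 1 of 11 was higher and 1 lower, beside 4.1% of all genes higher and 10.2% lower. The count of lower genes is thus near the share over all genes. Slco2a1 averaged 41.5 against 18.3 TPM on cKO plate 3 and 53.9 against 10.2 TPM on dKO plate 2, and was higher in both. Ptgs2, the inducible cyclooxygenase upstream of Ptges, was positive in 1 and 2 Sca-1-positive cells only and did not pass. Ptgs1, the constitutive cyclooxygenase, passed as higher on cKO plate 3, at 35.8 against 15.6 TPM. Ptges2, which encodes another prostaglandin E synthase, was lower on dKO plate 2, at 2.67 against 11.3 TPM. Of 9 measured NF-kB subunit, IκB and kinase genes, 0 were higher or lower on either plate, and of 14 feedback and adaptor genes likewise 0. Rela, for example, had 10.9 and 8.79 TPM in Sca-1-positive and 9.85 and 11.7 TPM in Sca-1-negative cells.

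Immediate early RNA moved with the gate on dKO plate 2 and less on cKO plate 3. Its summed TPM was 4086 in Sca-1-positive against 870 in Sca-1-negative cells of dKO plate 2. There 15 of 18 measured genes were higher and 1 lower, beside 4.1% and 10.2% of all genes. On cKO plate 3 the sums were 2453 and 1523 TPM, and 3 of 20 genes were higher, beside 2.99% of all genes. The members' part in that shift was not tested. Immune cell markers summed to 40.8 TPM in Sca-1-positive cells of cKO plate 3, to 3.18 TPM in those of dKO plate 2 and to 8.70 to 49.1 TPM on the Sca-1-negative plates. In the Sca-1-positive gate, 2 of 41 cells were positive for 3 or more of 21 immune markers, and 11 of the markers, among them Ptprc and Cd3g, were listed at 0 in every cell. Without those 2 cells the counts of members higher were again 5 and 6.

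Between the genotypes of Sca-1-positive cells, 0 of 6 members passed the gate's size rule, where 3.07% of 6966 genes were higher in dKO and 4.09% lower. Il33 had the largest log2 ratio, -1.66, from 25.3 TPM in cKO to 7.36 TPM in dKO cells, with a difference of -0.95 in mean log2(TPM + 1) that missed the rule. The log2 ratio was -1.31 for Tnfaip3 and 0.96 for Nfkbiz, while Il1r2, Ptges and Nfkbia lay between -0.19 and 0.20. Each side is 22 or 19 cells of 1 plate, so plate and genotype cannot be told apart.

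Detection of the regulators was compared cell by cell in the Sca-1-negative gate. For each pair and plate, the share of cells positive for the second gene was compared between cells positive and negative for the first, and in 14 of 15 cases it was higher in the positive cells. No such count was made for other gene pairs. Tnfaip3 was positive in 34.2% (19.6 to 51.4%) of Nfkbia-positive and 3.03% (0.0767 to 15.8%) of Nfkbia-negative cells on cKO plate 1. On every other plate the intervals of this pair overlapped, as on dKO plate 1, at 15.8 to 40.3% and 1.70 to 21.9%. On cKO plate 3, all 13 cells positive for Tnfaip3 were also positive for Nfkbia, as were all 10 on dKO plate 2. Nfkbia was positive in 76.9% and 70.5% of all Sca-1-negative cells of these plates, so much of this overlap would arise without any link. The exception was Nfkbiz with Tnfaip3 on dKO plate 2, where 1 of 10 Nfkbiz-positive cells (10%) and 9 of 51 others (17.6%) were positive for Tnfaip3. Within cells below the plate median of genes detected it was 14 of 15 and in the rest 12 of 15.

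All 3 regulators were positive in 39 of 337 Sca-1-negative cells and in 12 of 41 Sca-1-positive cells. At least 1 alarm gene was positive in 33 of 337 Sca-1-negative cells, 9.79% (6.84 to 13.5%), and in 31 of 41 Sca-1-positive cells, 75.6% (59.7 to 87.6%). Within the Sca-1-positive gate, the share for the second alarm gene was higher in cells positive for the first in 5 of 6 pairs and plates. The intervals overlapped in every case, and no such count was made for other gene pairs. The widest contrast in this direction was Il33 on cKO plate 3. It was positive in 7 of 10 Il1r2-positive cells, 70.0% (34.8 to 93.3%), and 2 of 12 Il1r2-negative cells, 16.7% (2.09 to 48.4%). The exception was Il33 with Ptges on dKO plate 2, with Ptges in 1 of 5 Il33-positive cells (20%) and 64.3% of the others. Only 3 cells, all Sca-1-positive, were positive for all 6 members.

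**Figure D3:**
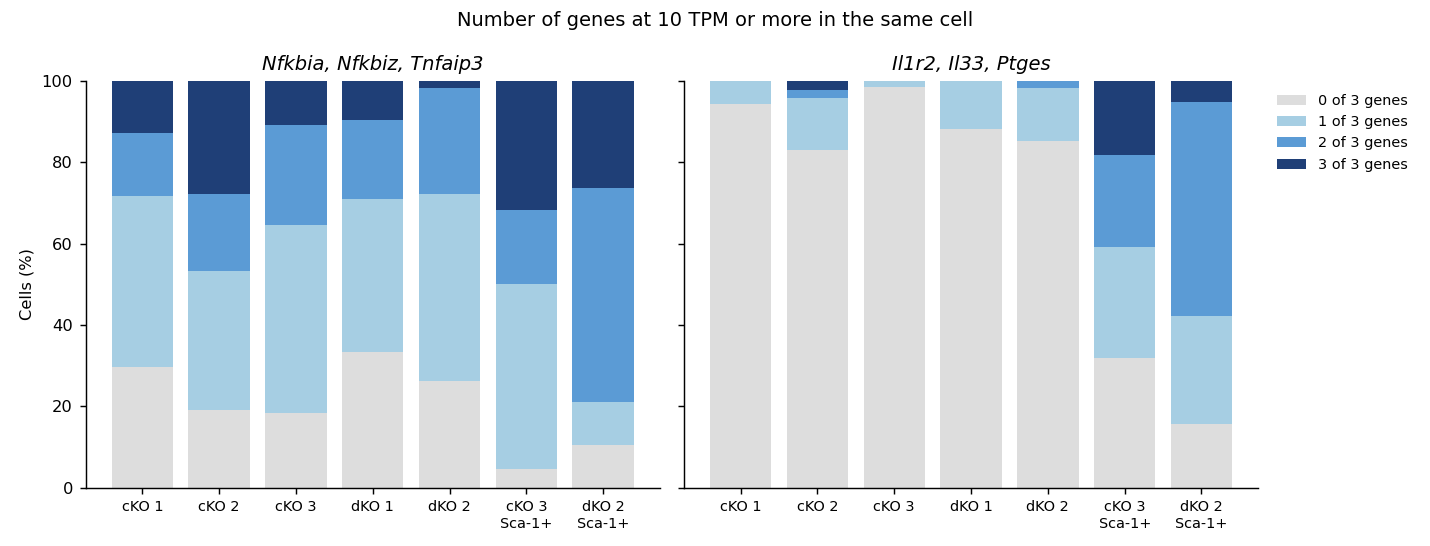
Stacked bars give the percent of cells in which 0, 1, 2 or 3 genes reached 10 TPM, for the regulators (left) and the alarm genes (right), by plate and gate. The grey part with no alarm gene takes 82.98% or more of every Sca-1-negative bar, but 31.8% and 15.8% of the Sca-1-positive bars.

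Correlation of log2(TPM + 1) over the 337 Sca-1-negative cells was computed after each plate was centred on its mean. These cells share plates and libraries, and the coefficients describe them without a test. Pearson's r was 0.42 between Nfkbia and Tnfaip3, 0.37 between Nfkbia and Nfkbiz and 0.32 between Nfkbiz and Tnfaip3. On single plates these ranged from 0.33 to 0.58, from 0.08 to 0.55 and from 0.02 to 0.52, in the same order, so that for pairs with Nfkbiz a plate lay near 0. The number of genes detected per cell had r of 0.17 to 0.20 with the 3 genes, and its part in these values was not tested. Among 5285 other genes positive in at least 20% of the cells, with predicted genes and mitochondrial, ribosomal protein and ERCC rows ranked but not named, Nfkbia was the gene most like Tnfaip3, followed by Irf1, an interferon regulatory factor gene, at 0.37, and Mill1 at 0.37. Those most like Nfkbia were Dusp1, Egr1 and Fosb, each at 0.45, with Tnfaip3 the sixth. Nfkbiz stood closest to Nr4a1 (0.61), Fosb (0.60) and Atf3 (0.59), all immediate early genes, and its r with the immediate early score was 0.67. That of Nfkbia with the score was 0.48 and that of Tnfaip3 was 0.38. The median r over all genes was 0.03 to 0.04 for these 3 members.

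At the other end, Cd34 had r = -0.44 with Nfkbiz, the seventh lowest of all genes compared. The alarm genes, positive in few cells, had weak coefficients throughout. For Ptges the highest were Ly6a (0.29), Slco2a1 (0.24) and the splicing factor gene Bud31 (0.24). For Il1r2 they were Ndufa4l2 (0.22), Wnt16 (0.22) and Stra13 (0.20), with Ly6a the fourth. For Il33 the named genes were Tgfbr3 (0.24), Aldh6a1 (0.23) and Tle3 (0.22), at ranks 1, 3 and 4.

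**Figure D4:**
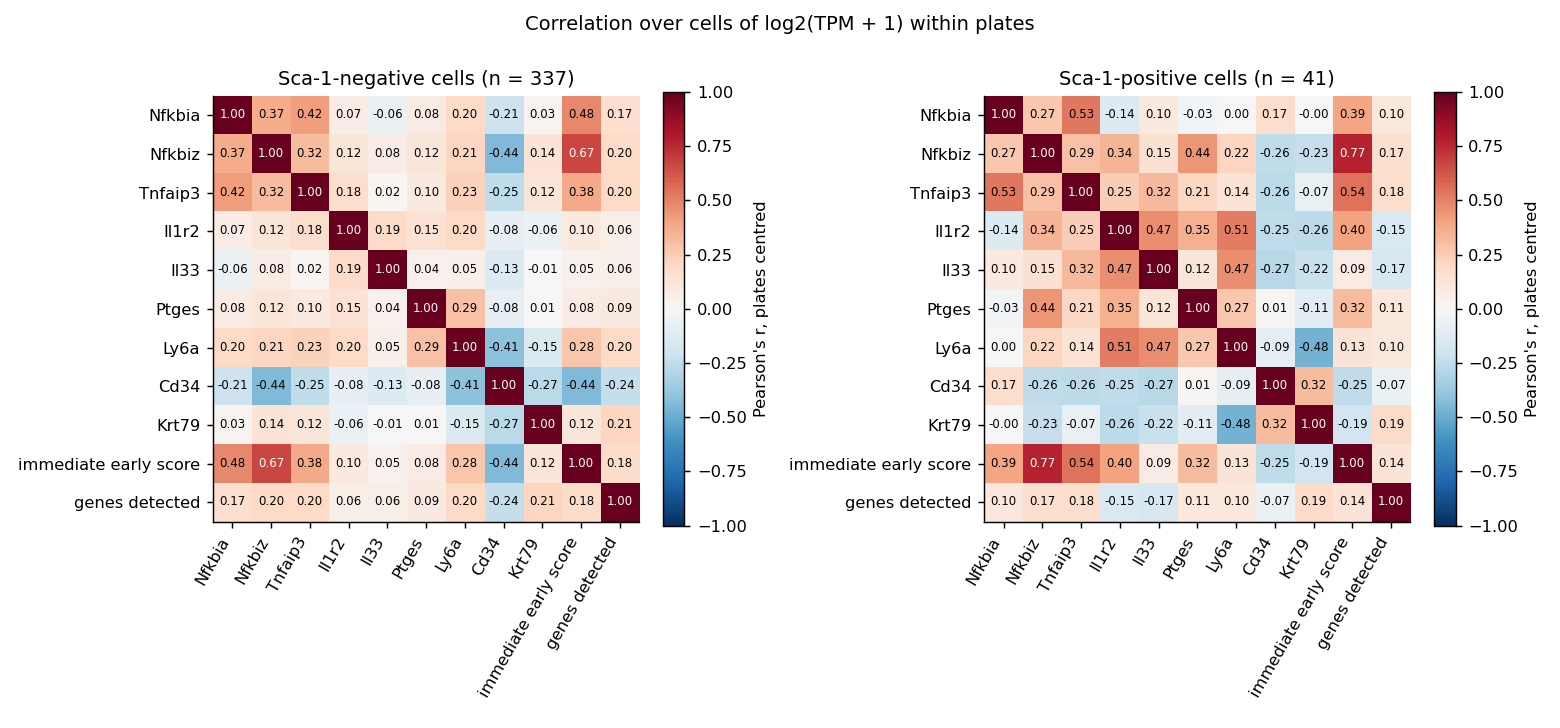
Pearson's r of log2(TPM + 1) over cells, with plates centred, is shown by colour and printed value for the 6 members, Ly6a, Cd34, Krt79, the immediate early score and genes detected per cell, in Sca-1-negative (left) and Sca-1-positive cells (right). The regulators form a block of 0.32 to 0.42 in the left panel, and in the right panel Il1r2 has r of 0.47 with Il33 and 0.51 with Ly6a.

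By plate, r with Cd34 ranged from -0.66 to -0.21 for Nfkbiz, from -0.40 to -0.08 for Tnfaip3 and from -0.45 to 0.07 for Nfkbia, which was thus not negative on every plate. Sca-1-negative cells were divided at 10 TPM into 91 Cd34-positive cells, 63 cells positive for Krt79, a keratin gene of the upper follicle, and negative for Cd34, and the remaining cells with neither. Nfkbiz averaged 1.95 ± 1.28 TPM (SD over 5 plates) in Cd34-positive cells, 25.5 ± 28.3 TPM in Krt79-positive cells and 21.7 ± 13.4 TPM in cells with neither. In the Cd34-positive cells of cKO plate 3 none of 16 was positive for Nfkbiz. For Tnfaip3 the 3 means were 4.06 ± 3.82, 22.8 ± 11.8 and 26.3 ± 27.7 TPM, and for Nfkbia 27.9 ± 7.63, 63.4 ± 46.6 and 71.6 ± 24.1 TPM. All 3 regulators were lower in Cd34-positive cells than in cells with neither on all 5 plates.

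The immediate early score was 1.95 in Cd34-positive cells, 3.52 in Krt79-positive cells and 3.79 in cells with neither, the order of the Nfkbia and Tnfaip3 means but not of Nfkbiz, while median genes detected were 4785, 5334 and 5031. Their part in the difference was not tested. Near the thresholds lay 13 cells with 5 to 20 TPM of Cd34 and 17 with that level of Krt79. Within cells with neither RNA, Nfkbiz averaged 29.2, 39.9 and 19.6 TPM across the 3 cKO plates, with 15.1 and 4.77 TPM across the 2 dKO plates, so that the genotypes did not overlap there. In Cd34-positive cells it stood at 0.0863 to 2.98 TPM across the 3 cKO plates, with 3.18 and 1.29 TPM across the 2 dKO plates, which overlapped.

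**Figure D5:**
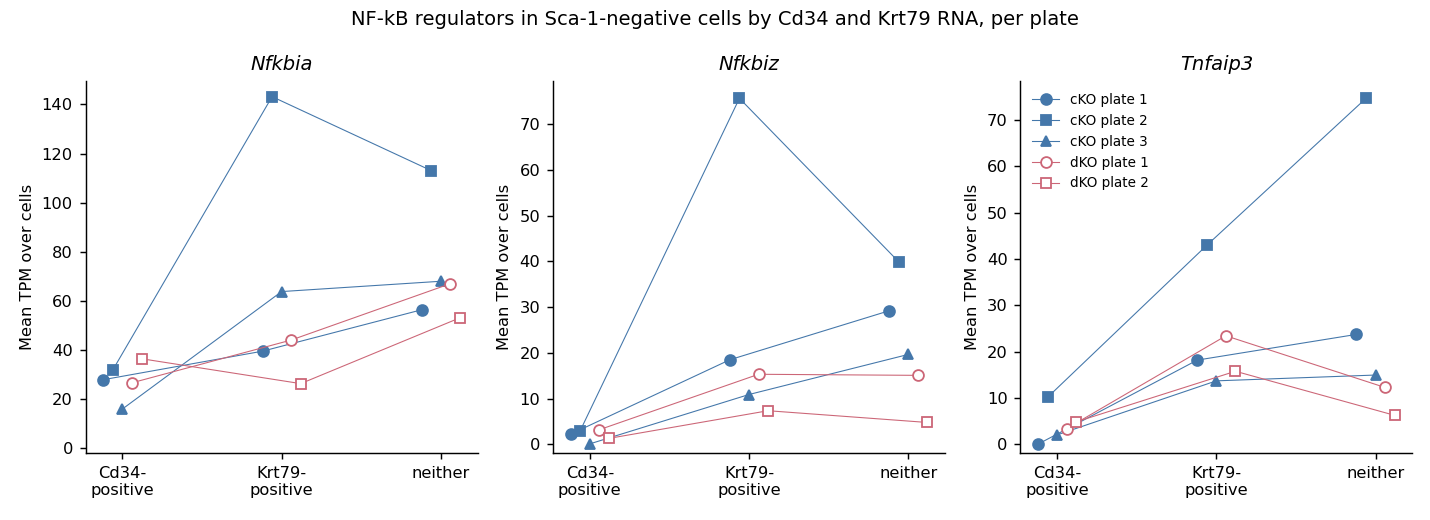
Mean TPM over Sca-1-negative cells is plotted for the 3 regulators in Cd34-positive, Krt79-positive and remaining cells, 1 line per plate (blue cKO, red dKO). Cd34-positive cells lie lowest on all plates for Nfkbiz and Tnfaip3; for Nfkbia on dKO plate 2 the Krt79-positive cells, at 26.4 TPM, lie below the Cd34-positive cells, at 36.5 TPM.

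The few Sca-1-negative cells with alarm genes differed in their Ly6a RNA. Ly6a reached 10 TPM in 30.3% of the 337 cells of this gate. Of 22 Ptges-positive cells 17 were among them, so that Ptges was positive in 16.7% (10.02 to 25.3%) of cells with Ly6a RNA and in 2.13% (0.694 to 4.90%) of 235 cells without it. Il1r2 was positive in 6 of the cells with Ly6a RNA and 4 without, and Il33 in 1 and 4. Of the 10 Il1r2-positive cells 5 came from cKO plate 2, as did 3 of the 5 Il33-positive cells. That plate also had the highest means of Nfkbia, Nfkbiz and Tnfaip3. Cells with Ly6a RNA had a mean immediate early score of 4.13 and a median of 5174 genes, against 2.86 and 4957 in cells without, and the part of these differences was not tested.

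Among Sca-1-negative cells, Ly6a reached 10 TPM in 1.10% of Cd34-positive cells and in 47.5% of cells with neither Cd34 nor Krt79. The contrast by Ly6a RNA thus overlaps the contrast by Cd34 RNA given above, and the part of this overlap was not tested. Nfkbia and, on 4 of 5 plates, Tnfaip3 had higher means in cells with Ly6a RNA. Nfkbia averaged 87.1 ± 37.1 TPM with it and 45.8 ± 14.97 TPM without it (SD over 5 plates), and Tnfaip3 38.3 ± 45.5 and 12.3 ± 7.63 TPM. Tnfaip3 on dKO plate 1 went the other way, at 10.05 and 12.5 TPM, and its mean with Ly6a RNA rests on cKO plate 2, at 118.9 TPM against at most 26.9 TPM on the other plates. Nfkbiz averaged 22.6 ± 16.4 TPM with Ly6a RNA and 13.7 ± 9.56 TPM without it. Its share of positive cells was lower with Ly6a RNA on both dKO plates, at 21.2% against 28.3% and 12.5% against 17.8%. Within the Sca-1-positive gate, 4 cells had 100 TPM or more of Krt10, a keratin gene of differentiating suprabasal epidermis. Among these, 0 were positive for Il1r2, 0 for Ptges, 0 for Tnfaip3 and 1 for Il33, whereas of the other 37 cells 23 were positive for Il1r2, 19 for Ptges, 15 for Tnfaip3 and 13 for Il33. With 4 cells, which could hold a gene in many cells of the kind and still show none, this is a count and no more.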

How the data were processed

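Single cells were measured by Smart-seq2, a full-length protocol without molecular identifiers, per the labels' protocols. The authors deposited TPM, with Bowtie2 2.2.9, RSEM 1.2.30 and mm10 (GRCm38) named in the submitters' processing notes. Each column sums to the same total, so no read depth remains and reads of similar genes were divided by a model. The row Rn18s-rs5 alone took 57.9% of TPM. Groups came from the strain and sorting labels, plates from titles. Cells with fewer than 1000 genes at 1 TPM were left out (6 of 384). Mean TPM per plate was averaged with equal weight per plate and 1 TPM was added before ratios, which understates changes of low genes. Size rules are descriptions, not tests. Of each gene list, up to 3 measured genes of largest ratio past the genotype rule were selected or, if none passed, the 2 of highest TPM. The text gives only some of these by genotype. Those left out include Krt15, Lgr6 and H2-Ab1, which passed as lower in dKO, and Krtdap and Col1a1, which passed as higher. Other genes were named after their values were seen, as were those of the gate comparisons. Members and lists were chosen with earlier results of these data known. Scripts used Python 3.11.15, numpy 2.4.6, pandas 2.3.3 and scipy 1.17.1 and were checked on simulated data.

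Alternatives were other pseudocounts, filters, scalings and ratios, plates left out or taken by Xist or Y-linked RNA, the highest 5% of cells removed, and cells with immune markers removed. Added after seeing the data were divisions by immediate early score, Cd34 and Krt79 RNA, Ly6a RNA and well row. Doublets were not called in these singly sorted cells.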

Additional observations from a re-analysis of the deposited data

How the results depend on the processing

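In Sca-1-negative cells, the number of members past the genotype rule was 1 (Nfkbiz). It became 0 with a pseudocount of 10 TPM, a gene filter of 20 TPM, rescaling without ERCC and the 5 most abundant rows, plate size factors, a ratio of 3, or cells below the median immediate early score. It became 2, with Tnfaip3 added, in cells at or above that score, in cells with neither Cd34 nor Krt79, in rows C to H, and on plates with Xist RNA. Leaving out each plate in turn gave 0 to 2 members, 0 being the count without cKO plate 2 or dKO plate 2. The Nfkbiz log2 ratio was negative under all alternatives run, from -2.06 to -0.44. Of all genes, 1.87% passed with every plate and 2.37% to 5.24% with 1 plate left out. The share was 0.524% (37 genes) with a pseudocount of 10 TPM, 0.905% (421) with no filter, 1.66% (34) with a filter of 20 TPM, 3.66% (447) when rescaled, 5.72% (404) and 0.567% (40) with ratios of 1.5 and 3, 3.90% (282) in cells with a low score, 3.83% (266) in cells with neither RNA, 5.57% (390) with Xist RNA and 8.19% (580) with Y-linked RNA. Rescaling moved the median log2 ratio of all genes from -0.12 to -0.002.

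For the gate on cKO plate 3, 4 or 5 members were higher under the alternatives run. Of all genes, 8.51% passed (658), against 16.8% (1300) with a pseudocount of 0.1 TPM, 1.12% (87) with one of 10 TPM, 12.6% (291) with a filter of 20 TPM and 10.6% (1365) when rescaled. Against Sca-1-negative cells with neither Cd34 nor Krt79, Nfkbia did not pass there (log2 ratio 0.91), and Nfkbiz was at -0.08. With all cells, 1 cell of 63 genes and 16420 TPM of Tnfaip3 brought the Tnfaip3 log2 ratio to 6.04. On dKO plate 2, 3 to 6 members were higher under the alternatives run, 3 being the count with a pseudocount of 10 TPM. Il33, at 7.36 and 0 TPM in the 2 gates, fell below the filter of 20 TPM. There 14.3% of genes passed (1096), against 24.2% (1860), 2.57% (197), 21.6% (511) and 15.9% (2006) in the same order of settings. Between genotypes in the Sca-1-positive gate the members numbered 1 with a pseudocount of 0.1 TPM (Il33 lower), 1 with all cells (Nfkbiz higher), and 2, both of these genes, when rescaled or without cells with 3 immune markers. Genes past that rule were 7.16% (499), against 16.5% (1151), 0.201% (14), 8.67% (87 higher and 92 lower) and 11.04% (1300). No called value changed sign. No paired analysis was possible because plate numbers pair no samples of the 2 genotypes, and the gate comparisons, each already within 1 plate, carry no test.

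Each genotype was treated as 1 sample per gate because animals are not named, and read depth is unknown, so a gene listed at 0 in a cell cannot be told from one that was not detected.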
